A study of Mus musculus with 18 samples.

Results

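The genes described here are 8 markers of bile duct and progenitor epithelium (Sox9, Krt19, Krt7, Epcam, Cd24a, Cftr, Sctr and Spp1), taken by name from the 55335 genes of a bulk RNA-seq count table and followed over all 12 bulk libraries of mouse hepatocellular carcinoma. They were not chosen by a threshold on measured values, but they and the gene lists were chosen with earlier results of these data known. Counts of these genes beside the shares over all genes are therefore a description, not independent support. Every library came from a tumour, and the libraries fall into 4 groups of 3, a control group and a group labelled Prom1 depletion in each of 2 tumour models. In the DEN+CCl4 model, mice were given the carcinogen N-nitrosodiethylamine (DEN, 1 mg/kg) when 14 days old and then repeated carbon tetrachloride (CCl4, 0.2 ml/kg), a liver toxin, starting at 8 weeks. In the N-Ras+AKT model, the plasmids pT3-EF1a-NRasV12 and pT3-EF1a-myr-AKT (20 µg of each) were delivered with 1.6 µg of the sleeping beauty transposase by hydrodynamic tail vein injection. Depletion relied on the Prom1C-L allele, in which a tamoxifen-dependent Cre (CreERT2) and LacZ are driven from the Prom1 locus, and on the Rosa26DTA allele, from which Cre switches on diphtheria toxin A, a protein that kills the cell making it. Tamoxifen was given in several 4 mg doses after tumours had formed, and tumours were taken 16 days after the last dose in the DEN+CCl4 model and 6 days after it in the N-Ras+AKT model. The strain label reads Prom1C-L/+;Rosa26DTA/+ for controls as well as depleted mice, whereas the design text names Prom1+/+;Rosa26DTA/+ littermates and an olive oil vehicle. The control genotype is therefore not settled, and an effect of the Prom1C-L allele on the Prom1 transcript cannot be told apart from the loss of cells. The labels do not say whether the libraries of a group are separate animals, so the p-values measure the spread between these samples, which may be technical.

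Bile ducts are lined by cholangiocytes, which carry the keratins of simple epithelia, the transcription factor SOX9 and the adhesion molecule EPCAM, and which add chloride, bicarbonate and water to bile in response to secretin. Hepatocytes and cholangiocytes descend from a common progenitor, the hepatoblast, and in injured liver cells with duct markers expand in what is called a ductular reaction. PROM1 (prominin-1, CD133) is itself a marker of such cells, which is why each of the 8 genes is set here beside the Prom1 level of the same library.

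The 12 libraries held 31306617 to 48055812 counts, and all levels are CPM, counts scaled to a common library size after TMM scaling, which corrects that size for a few abundant genes. Prom1, the gene that drives the depletion (ENSMUSG00000029086.15, chr5:43993620-44102032, minus strand, GRCm38), had 60.1, 76.7 and 48.9 CPM in DEN+CCl4 controls 7, 8 and 13 and 17.4, 40.0 and 35.6 CPM in depletion libraries 6, 9 and 10. In the N-Ras+AKT model it had 45.3, 59.2 and 78.2 CPM in controls 3, 10 and 15 and 5.804, 16.5 and 2.16 CPM in depletion libraries 6, 11 and 17. Every depletion library lay below every control of its model. The log2 difference was -2.90 ± 0.61 (SE) in N-Ras+AKT (edgeR quasi-likelihood test, Benjamini-Hochberg adjusted p = 0.00953) and -0.995 ± 0.57 in DEN+CCl4 (adjusted p = 0.381). Hepatocyte markers were present in all groups, with 18 of 18 detected in each. A library of each depletion group stood apart in a principal component analysis. DEN+CCl4 depletion 6 lay at -84.1 on the third component, where the other libraries ran from -15.4 to 39.4, and N-Ras+AKT depletion 17 lay at -102.1 on the second, where the other depletion libraries of its model lay at -48.4 and -32.7. These libraries also had the lowest Prom1 level of their groups, and results are given with and without them.

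Among the 8 genes, Spp1 and Cftr varied most over the libraries. The highest Spp1 level was 924.5 times the lowest, and the highest Cftr level 810.5 times the lowest, against 16.7 to 81.4 times for Sox9, Krt19, Krt7, Epcam and Cd24a. Sctr had no counts in 4 libraries, so no ratio is given for it. The 250 bases before the start of these 2 genes (RefSeq, GRCm38.p6, plus strand, 5′ to 3′) are shown because they had the lowest (Spp1) and highest (Cftr) G and C content of the 4 promoters at hand, which were those of Krt7, Epcam, Cftr and Spp1. Capitals mark matches to short motifs searched on both strands.
Spp1 promoter, chr5:104434861-104435110: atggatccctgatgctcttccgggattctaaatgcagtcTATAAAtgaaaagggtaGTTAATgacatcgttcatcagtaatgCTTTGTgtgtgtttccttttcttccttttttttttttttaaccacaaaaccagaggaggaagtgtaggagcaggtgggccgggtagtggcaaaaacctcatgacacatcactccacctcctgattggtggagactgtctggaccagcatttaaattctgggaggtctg
Cftr promoter, chr6:18170437-18170686: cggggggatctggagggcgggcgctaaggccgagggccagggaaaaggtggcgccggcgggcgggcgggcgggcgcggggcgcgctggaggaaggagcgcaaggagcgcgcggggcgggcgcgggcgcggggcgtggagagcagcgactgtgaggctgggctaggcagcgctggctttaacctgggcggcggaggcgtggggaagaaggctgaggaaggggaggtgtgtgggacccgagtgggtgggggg
The Spp1 stretch had 43.6% G and C and 3 CpG dinucleotides, and the Cftr stretch 76.4% and 30, against a median of 52.4% and 6 over 32851 promoters. Motifs searched for SOX factors were ACAATG and, with the same first letters, ACAAAG. TEAD factors were represented by GGAATG, and the factor AP-1 by TGANTCA. For RBPJ, the DNA-binding partner of Notch, the letters were GTGGGAA. For HNF1 they were GTTAAT, which is part of its site, and for the TATA box TATAAA. In Spp1, TATAAA lay 206 to 211 bases before the start, GTTAAT 189 to 194 bases before it, and ACAAAG, read on the other strand as CTTTGT, 163 to 168 bases before it. Cftr, Epcam and Krt7 had no match in this window. Of all promoters, 12.4% held TATAAA, 6.43% GTTAAT, 16.5% ACAAAG, 10.7% ACAATG, 12.6% GGAATG, 6.75% TGANTCA and 5.42% GTGGGAA. A match is a description of letters only.

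The first comparison asked how the tumour models differ without depletion. All 8 genes were higher in N-Ras+AKT controls than in DEN+CCl4 controls (edgeR quasi-likelihood test, adjusted p from 0.000341 to 0.0154), while 20.8% of the 17013 genes tested were higher. In all 8 the controls of the models did not overlap, which held in this direction for 28.4% of genes. The median log2 difference was 3.16 over the 8 genes and 0.04 over all genes. Prom1 did not follow, with a mean of 60.9 ± 16.5 CPM (SD, n = 3) in N-Ras+AKT controls and 61.9 ± 14.0 CPM in DEN+CCl4 controls (log2 difference -0.02 ± 0.56, adjusted p = 0.98). The calls for Krt7 and Sctr each rested on single libraries. Krt7 had adjusted p = 0.0549 without DEN+CCl4 control 13 and 0.0569 without N-Ras+AKT control 3, and Sctr 0.0585 without DEN+CCl4 control 8 and 0.053 without control 13.

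Markers of other cell types differed between these controls as well, and their part in the differences was not tested. Of the 17013 genes tested, 6901 passed in this comparison, 3538 of them as higher in N-Ras+AKT controls. Hepatocyte markers passed as lower in N-Ras+AKT controls in 12 of 18, with summed levels of 76440 to 80570 CPM against 202600 to 263000 CPM in DEN+CCl4 controls. Lower in N-Ras+AKT controls were also 7 of 10 endothelial markers (133.1 to 173.1 against 420.7 to 449.5 CPM summed), 5 of 9 B and plasma cell markers (10.2 to 11.2 against 97.9 to 173.9) and 5 of 10 mesothelial markers (3.20 to 6.61 against 7.29 to 8.68). Higher were 5 of 6 measured erythroid markers (200.8 to 672.0 against 47.6 to 90.2 CPM summed), 5 of 8 measured neutrophil markers, with 1 lower (18.5 to 31.7 against 6.42 to 8.36), and 4 of 5 measured intestine and gallbladder markers (53.2 to 68.4 against 11.9 to 15.2, median log2 difference 3.501). Of the latter list, 9 of 11 had counts in N-Ras+AKT controls, and Cdx1 and Cdx2 were at 0. Macrophage markers had 3 higher and 1 lower of 14 (454.5 to 663.7 against 459.1 to 510.0), stellate cell and fibroblast markers 2 higher and 1 lower of 12 (624.8 to 744.5 against 537.1 to 637.8), and pancreas markers 1 of each among 2 measured (12.4 to 15.7 against 39.1 to 45.2).

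Levels of different genes can be compared per kilobase of exon. On that scale (mean CPM per kilobase ± SD, n = 3) Spp1 was the most abundant of the 8 in N-Ras+AKT controls, at 5298 ± 969. Cd24a followed at 55.8 ± 10.3 and Sox9 at 15.1 ± 1.12, with Epcam at 4.88 ± 1.02, Cftr at 3.5 ± 2.17, Krt19 at 2.44 ± 1.02, Krt7 at 0.358 ± 0.109 and Sctr at 0.281 ± 0.104. Prom1 stood at 8.49 ± 2.30, between Sox9 and Epcam. In DEN+CCl4 controls Spp1 was again highest at 184 ± 93.4 and Sctr lowest at 0.0281 ± 0.0375, and Sox9, at 3.53 ± 0.728, stood above Cd24a at 1.98 ± 0.475.

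**Figure D1:**
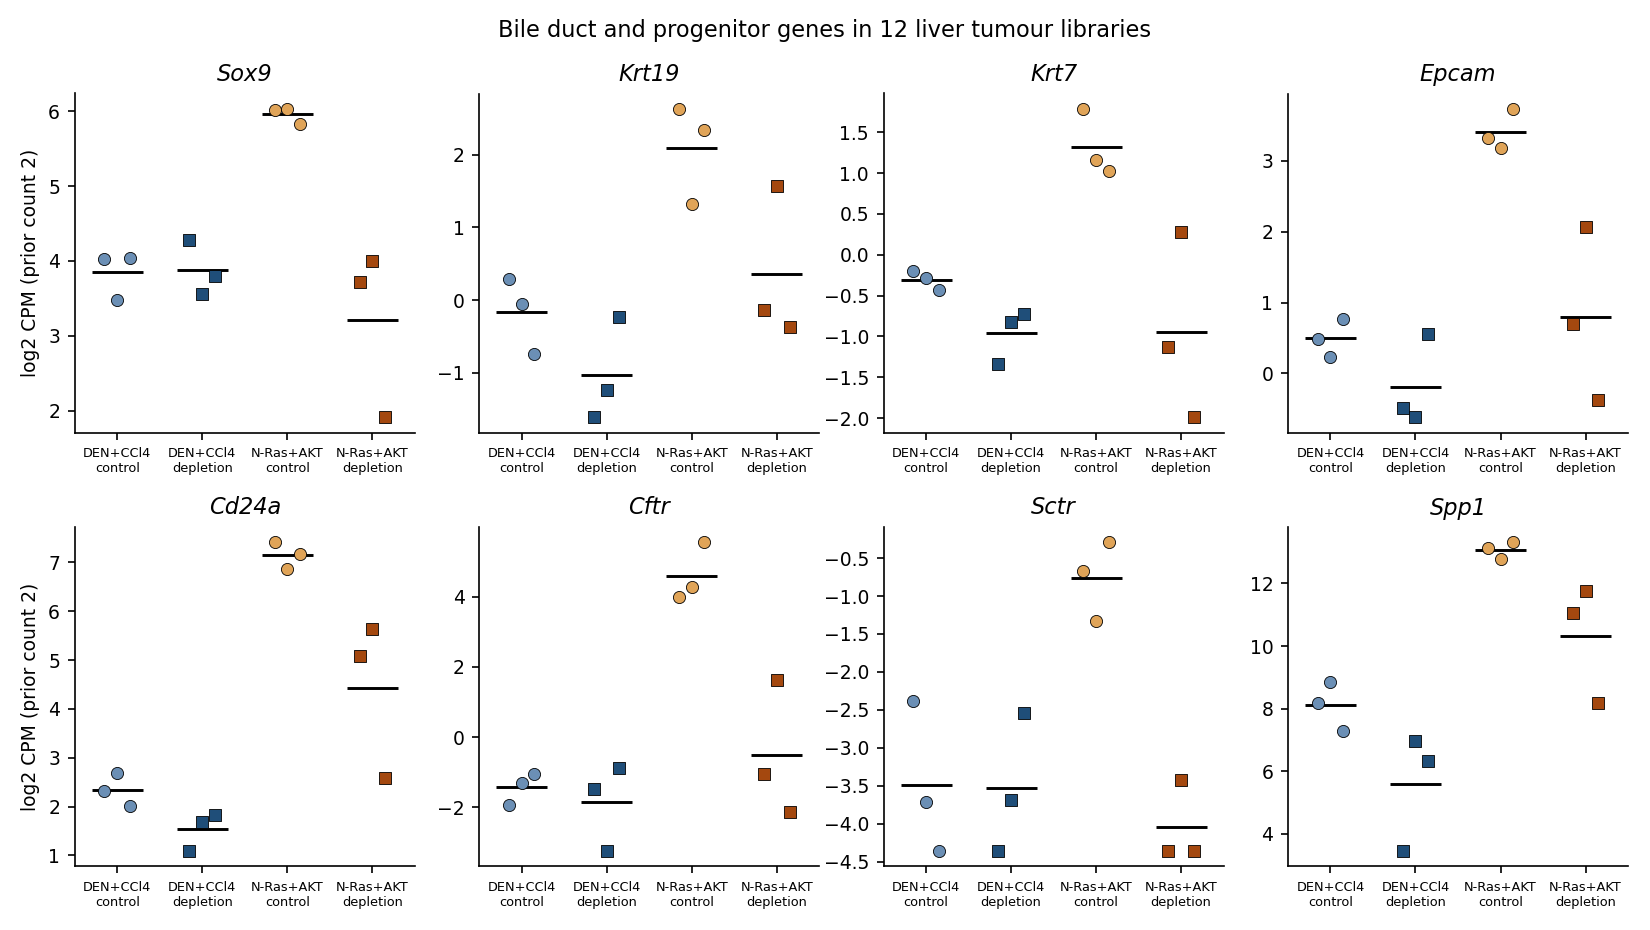
Level of each gene in each of the 12 libraries, as log2 CPM with a prior count of 2 (vertical axis), by group (horizontal axis). Circles are control libraries, squares depletion libraries, and bars the mean of 3 libraries. In every panel the N-Ras+AKT controls hold the highest mean. The lowest level drawn for Sctr stands for 0 counts.

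In N-Ras+AKT tumours, 6 of the 8 genes fell with Prom1 depletion (Sox9, Krt7, Epcam, Cd24a, Cftr and Sctr), against 10.8% of all genes tested as lower and 12.8% as higher. Depletion libraries lay below all controls in 7 of the 8, which held for 21.5% of genes. The median log2 difference was -2.30 over the 8 genes and -0.02 over all genes. With the libraries that stood apart left out together, 7 of the 8 passed as lower. The median log2 difference was then -1.84 over the 8 genes and -0.03 over all genes. In that setting 2429 genes passed in either direction, against 4027 with all libraries. None of the 8 passed in DEN+CCl4 tumours, with or without the libraries that stood apart. Of all genes, 0.37% passed there with all libraries. In bulk tissue, fewer cells of a type and less RNA per cell cannot be told apart.

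Sox9 encodes the transcription factor that marks duct cells and some progenitors (ENSMUSG00000000567.5, chr11:112782224-112787760, plus strand, GRCm38, as for all positions of genes here). In N-Ras+AKT controls 3, 10 and 15 it had 64.7, 65.4 and 57.0 CPM, and in depletion libraries 6, 11 and 17 it had 13.1, 15.9 and 3.72 CPM. The controls were close together and far above the depletion libraries, among which library 17 was lowest. Sox9 fell by 2.51 ± 0.43 on the log2 scale (adjusted p = 0.00452) and passed in all 12 alternatives. In the DEN+CCl4 model it had 16.3, 11.1 and 16.4 CPM in controls 7, 8 and 13 and 19.3, 11.7 and 13.9 CPM in depletion libraries 6, 9 and 10. Those groups overlapped, and the highest value was in depletion 6, the library with the lowest Prom1 level of that model. The log2 difference there was 0.04 ± 0.41 (adjusted p = 0.978).

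The depletion effect on Sox9 differed between the models, with a log2 difference of effects (N-Ras+AKT minus DEN+CCl4) of -2.55 ± 0.58 (adjusted p = 0.0225). Sox9 was the only one of the 8 to pass this test, which 3.61% of all genes passed in the same direction. The call was lost without DEN+CCl4 control 7 (adjusted p = 0.0515), without DEN+CCl4 control 8 (0.0563), without N-Ras+AKT control 3 (0.0503) and with no filter on low counts (0.0658), and it was kept in the other 13 of 17 alternatives. After depletion, the mean Sox9 level was 10.9 ± 6.39 CPM in N-Ras+AKT and 15.0 ± 3.92 CPM in DEN+CCl4 (log2 difference -0.45 ± 0.41, adjusted p = 0.427). Only the N-Ras+AKT controls, at 62.3 ± 4.64 CPM, stood outside the range of the other groups. Prom1 itself had a difference of effects of -1.90 ± 0.81 (edgeR quasi-likelihood test, adjusted p = 0.151). Its log2 difference was -2.90 in N-Ras+AKT and -0.995 in DEN+CCl4. Tumours were taken 6 days after the last dose in N-Ras+AKT and 16 days after it in DEN+CCl4. The part of unequal Prom1 loss and of timing in the Sox9 difference was not tested.

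Krt19 and Krt7 encode keratins of the cytoskeleton of duct cells. Krt7 (ENSMUSG00000023039.17, chr15:101411043-101430313, plus strand) had 3.40, 2.19 and 1.98 CPM in N-Ras+AKT controls 3, 10 and 15 and 0.406, 1.17 and 0.203 CPM in depletion libraries 6, 11 and 17. The groups did not overlap, and depletion 11 was the highest of its group. Krt7 fell by 2.08 ± 0.49 (log2, adjusted p = 0.013), but had adjusted p = 0.0512 when the 6 libraries were fitted alone. Krt19 (ENSMUSG00000020911.14, chr11:100140810-100148665, minus strand) had 6.13, 2.45 and 5.01 CPM in the same controls and 0.860, 2.93 and 0.722 CPM in the depletion libraries. Depletion 11 lay above control 10, so Krt19 was the only one of the 8 whose groups overlapped. Its log2 difference was -1.59 ± 0.56 (adjusted p = 0.0607), and it passed in 4 of 12 alternatives, including the one without depletion 11 (adjusted p = 0.00853) and the one without control 10 (0.0379).

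In DEN+CCl4 tumours both keratins had few counts, 8 to 33 counts per library for Krt19 and 10 to 28 for Krt7. Krt7 had 0.818, 0.772 and 0.694 CPM in controls 7, 8 and 13 and 0.348, 0.517 and 0.555 CPM in depletion libraries 6, 9 and 10, without overlap. Its log2 difference was -0.67 ± 0.53 (adjusted p = 0.526). For Krt19 the controls ran from 0.549 to 1.17 CPM and the depletion libraries from 0.278 to 0.802 CPM, which overlap (log2 difference -0.84 ± 0.63, adjusted p = 0.51).

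Epcam and Cd24a encode surface proteins used to sort epithelial progenitors. Epcam (ENSMUSG00000045394.9, chr17:87635979-87651129, plus strand), a cell adhesion molecule, had 9.93, 8.98 and 13.2 CPM in N-Ras+AKT controls 3, 10 and 15 and 1.58, 4.14 and 0.722 CPM in depletion libraries 6, 11 and 17. Every control was above every depletion library. Epcam fell by 2.32 ± 0.52 (log2, adjusted p = 0.0111), in all 12 alternatives. Cd24a (ENSMUSG00000047139.9, chr10:43578284-43584265, plus strand), a small glycosylated surface protein, had 169.9, 116.7 and 144.9 CPM in the controls and 33.7, 49.4 and 5.98 CPM in the depletion libraries. These groups were far apart too, and library 17 was again the lowest. Cd24a fell by 2.28 ± 0.56 (adjusted p = 0.0178), but the call was lost without control 3 (0.0588), with no filter on low counts (0.0593) and with the 6 libraries alone (0.0509). Cd24a has related copies in the mouse genome, so reads may have been split in counting and its level is uncertain.

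In DEN+CCl4 tumours, Cd24a had 4.95, 6.42 and 3.99 CPM in controls 7, 8 and 13 and 2.09, 3.16 and 3.51 CPM in depletion libraries 6, 9 and 10. Again all depletion libraries were below all controls, with a log2 difference of -0.81 ± 0.61 that did not pass (adjusted p = 0.515). Epcam had 1.35, 1.13 and 1.65 CPM in the controls and 0.661, 0.603 and 1.42 CPM in the depletion libraries, where library 10 lay among the controls (log2 difference -0.62 ± 0.56, adjusted p = 0.592). Between the depletion groups of the models, Cd24a was higher in N-Ras+AKT by 3.34 ± 0.62 on the log2 scale (adjusted p = 0.00248), while the difference for Epcam was 1.26 ± 0.55 (adjusted p = 0.0983).

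Cftr and Sctr serve secretion into bile. CFTR is the chloride channel of the apical membrane, and SCTR the receptor through which secretin opens it. Cftr (ENSMUSG00000041301.15, chr6:18170687-18322768, plus strand) had 15.7, 19.3 and 46.6 CPM in N-Ras+AKT controls 3, 10 and 15 and 0.430, 3.02 and 0.180 CPM in depletion libraries 6, 11 and 17. Control 15 was the highest and depletion 17 the lowest, with a wide gap between the groups. The fall was 4.48 ± 0.88 on the log2 scale (adjusted p = 0.00734), in all 12 alternatives. Sctr (ENSMUSG00000026387.15, chr1:120006894-120063536, plus strand) had 35, 19 and 38 counts in the controls and 0, 2 and 0 counts in the depletion libraries. Its ratio of control to depletion counts, at equal library size, was 36.8 (exact 95% interval 9.91 to 308.5, covering counting error only), and it passed the test across all genes (adjusted p = 0.0081) and in all 12 alternatives.

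Both transport genes had few counts in DEN+CCl4 tumours. Cftr had 6, 13 and 15 counts in controls 7, 8 and 13 and 9, 2 and 16 counts in depletion libraries 6, 9 and 10, with overlap (log2 difference -0.26 ± 1.23, adjusted p = 0.936). Sctr had 5 counts in all over the controls and 5 over the depletion libraries, a ratio of 0.970 with an exact 95% interval of 0.223 to 4.21. A change of Sctr of less than that was not detectable at this depth. The differences of effects between the models were -4.22 ± 1.53 for Cftr (adjusted p = 0.0993) and -4.96 ± 1.77 for Sctr (adjusted p = 0.0896), neither of which passed.

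Spp1 encodes osteopontin, a secreted phosphoprotein made by duct cells, macrophages and activated stellate cells (ENSMUSG00000029304.14, chr5:104435118-104441050, plus strand). In N-Ras+AKT controls 3, 10 and 15 it had 9008, 7014 and 10170 CPM, and in depletion libraries 6, 11 and 17 it had 2119, 3440 and 292 CPM. The groups did not overlap, and library 17 was far below the other depletion libraries. The log2 difference was -2.16 ± 0.90 and did not pass (adjusted p = 0.108). It passed in only 2 of 12 alternatives, and in 0 of the 6 with 1 library left out. Those 2 were DESeq2 (adjusted p = 0.0165) and leaving out DEN+CCl4 depletion 6 and N-Ras+AKT depletion 17 together (log2 difference -1.65, adjusted p = 0.0355).

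Of the 8 genes, Spp1 had the largest difference in DEN+CCl4 tumours. It had 287, 464 and 158 CPM in controls 7, 8 and 13 and 11.0, 125.7 and 79.9 CPM in depletion libraries 6, 9 and 10. All depletion libraries were below all controls, as they were for Krt7 and Cd24a, so 3 of the 8 genes had this pattern, against 16.0% of all genes. The log2 difference of Spp1 was -2.07 ± 0.90, with an unadjusted p of 0.0437 and an adjusted p of 0.25. It was the only one of the 8 with an unadjusted p under 0.05 there, which 18.7% of all genes had. The difference of effects between the models was -0.09 ± 1.23 (adjusted p = 0.975). After depletion Spp1 was higher in N-Ras+AKT than in DEN+CCl4 by 4.75 ± 1.01 (log2, adjusted p = 0.00516). Cd24a and Spp1 were the 2 of 8 that passed this last comparison as higher, against 17.9% of all genes. An unconfirmed transcript annotated on the same strand, Gm42793, shares 309 bases of exon with Spp1 and had at most 840 counts in a library.

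**Figure D2:**
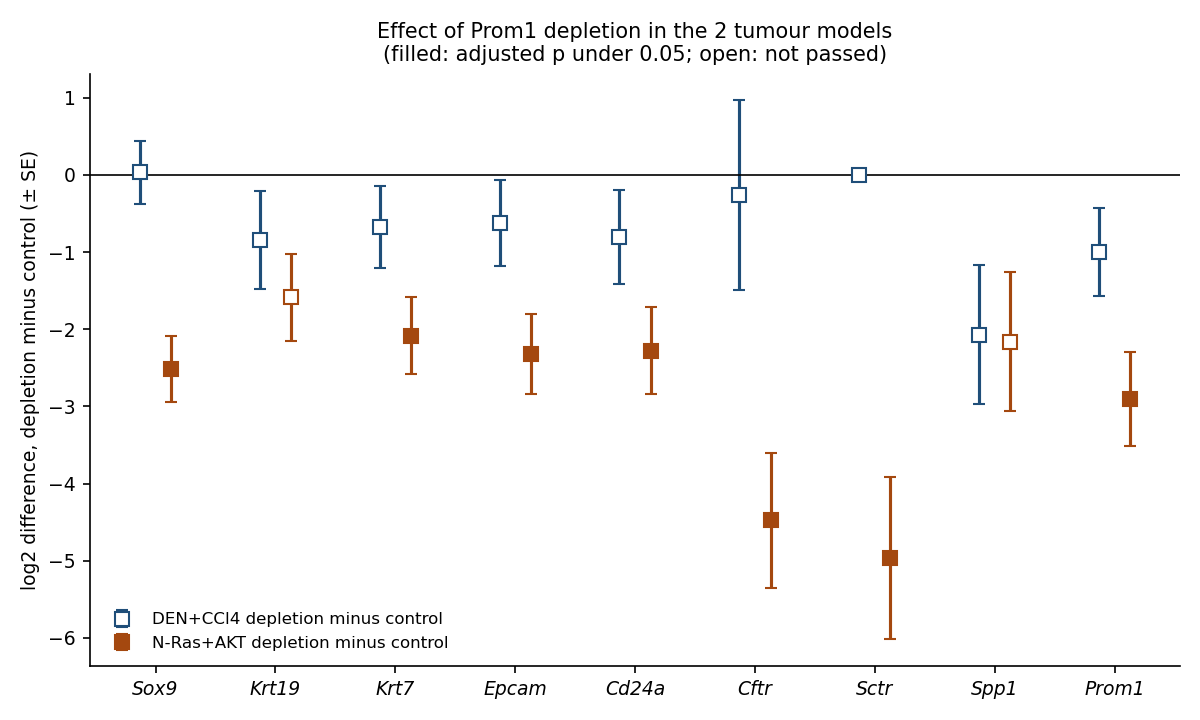
Log2 difference between depletion and control (vertical axis, ± SE) for the 8 genes and Prom1 (horizontal axis), in DEN+CCl4 (blue) and N-Ras+AKT (orange). Filled squares passed an adjusted p under 0.05 and open squares did not. Of the 8 genes, 6 are filled in N-Ras+AKT and none in DEN+CCl4. Sctr in DEN+CCl4 is drawn without a bar, since no SE is given for a log2 difference as small as -0.0018.

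The next question was whether each gene followed Prom1 from library to library. Since depletion and control groups differ in Prom1 by design, group means were removed first, and the remaining deviations in log2 CPM were compared over the 12 libraries, with Prom1 values permuted within groups (2-sided exact permutation test over 1296 arrangements, smallest possible p 0.000772). This was done for 8 genes, and the p-values of the permutation tests are not adjusted. For Spp1, Pearson's r was 0.875 (exact permutation p = 0.00309) and Spearman's rho 0.86 (p = 0.00617). Leaving out the libraries farthest in Prom1, N-Ras+AKT depletion 11 and 17, gave r = 0.888 over 10 libraries. In this and all other values without them, N-Ras+AKT depletion 6 is alone in its group and adds no deviation. Such values rest on the other groups, which include the 6 DEN+CCl4 libraries. Within the 6 DEN+CCl4 libraries r was 0.996 (exact permutation p = 0.0278, the smallest that 36 arrangements can give), and within the 6 N-Ras+AKT libraries it was 0.908 (exact permutation p = 0.167). When the libraries that stand apart, DEN+CCl4 depletion 6 and N-Ras+AKT depletion 17, were left out together, r was 0.663 (exact permutation p = 0.0486, an alternative added after seeing the data). That value pools both models, so it does not show how the DEN+CCl4 relation of Spp1 depends on depletion 6. In both DEN+CCl4 groups the libraries had the same order for Spp1 as for Prom1. Of all genes tested, 20.0% had the order of Prom1 in the controls and 17.3% in the depletion group.

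Cd24a was next, with r = 0.869 (exact permutation p = 0.0278) and rho = 0.629 (p = 0.109) over 12 libraries. Without the libraries farthest in Prom1, r was 0.635 (exact permutation p = 0.139). Within the 6 DEN+CCl4 libraries, which hold neither of those, r was 0.933 (exact permutation p = 0.0556), and within the 6 N-Ras+AKT libraries 0.869 (p = 0.25). Krt7 had r = 0.818 (exact permutation p = 0.116) and rho = 0.517 (p = 0.212), Epcam r = 0.79 (p = 0.141) and rho = 0.42 (p = 0.34), and Krt19 r = 0.682 (p = 0.11) and rho = 0.517 (p = 0.191). Without the same 2 libraries, r was 0.171 for Krt7, 0.194 for Epcam and 0.36 for Krt19. Within the 6 DEN+CCl4 libraries r was 0.901 for Krt7 (exact permutation p = 0.139), 0.075 for Epcam (p = 1.0) and 0.602 for Krt19 (p = 0.333). Within the 6 N-Ras+AKT libraries it was 0.821 for Krt7 (exact permutation p = 0.306), 0.982 for Epcam (p = 0.0833) and 0.721 for Krt19 (p = 0.306). Sctr had r = 0.486 (exact permutation p = 0.0941) and rho = 0.518 (p = 0.116), and r = 0.483 without those libraries, 0.51 in DEN+CCl4 and 0.673 in N-Ras+AKT. Cftr had r = 0.651 (exact permutation p = 0.214) and rho = 0.434 (p = 0.326), with r = -0.032 without them. Within the 6 N-Ras+AKT libraries Cftr had r = 0.962 (exact permutation p = 0.0278, the smallest possible), and within the 6 DEN+CCl4 libraries r = -0.37 (p = 0.722). With the libraries that stand apart left out together, r was 0.563 for Cd24a (exact permutation p = 0.278), 0.531 for Krt7 (p = 0.819), 0.516 for Epcam (p = 0.66), 0.542 for Krt19 (p = 0.493), 0.38 for Sctr (p = 0.361) and 0.644 for Cftr (p = 0.306). These values also pool both models and do not show how the DEN+CCl4 relations depend on depletion 6.

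Sox9 went the other way in DEN+CCl4. Over 12 libraries it had r = 0.553 (exact permutation p = 0.591) and rho = -0.035 (p = 0.954). Within the 6 DEN+CCl4 libraries r was -0.921 (exact permutation p = 0.0278, the smallest possible), so that libraries with less Prom1 than their group had more Sox9. Within the 6 N-Ras+AKT libraries r was 0.857 (exact permutation p = 0.306). When N-Ras+AKT depletion 11 and 17 were left out, r was -0.878 over 10 libraries, among them the 6 DEN+CCl4 libraries. In both DEN+CCl4 groups the library order of Sox9 was the reverse of that of Prom1, a pattern that 21.1% of all genes had in the controls and 16.8% in the depletion group. Over the 10 libraries of both models left without DEN+CCl4 depletion 6 and N-Ras+AKT depletion 17, r was -0.098 (exact permutation p = 0.799). That value pools both models, so it does not show how the DEN+CCl4 relation depends on depletion 6.

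Fitted across all genes as a slope on log2 Prom1 with the group means in the model, no gene passed by edgeR's quasi-likelihood test, 0 of 17012, while 1432 (8.42%) had an unadjusted p under 0.05. DESeq2 passed 255 genes and limma-voom 9. Among the 8 genes, 6 had an unadjusted p under 0.05. The slopes, in log2 per log2 of Prom1, were 1.46 ± 0.31 for Spp1 (adjusted p = 0.158), 1.34 ± 0.30 for Cftr (0.198), 0.86 ± 0.19 for Cd24a (0.208), 0.73 ± 0.18 for Epcam (0.213), 0.66 ± 0.20 for Krt7 (0.362), 0.65 ± 0.23 for Krt19 (0.459), 1.23 ± 0.72 for Sctr (0.685) and 0.34 ± 0.22 for Sox9 (0.713). With DESeq2, Spp1, Cd24a and Epcam passed. In the N-Ras+AKT depletion group, 7 of the 8 genes had the library order of Prom1, highest in library 11, then 6, then 17, and Sctr was at 0 in libraries 6 and 17. Of all genes tested, 21.0% had this order in that group. In the N-Ras+AKT controls, only Cftr of the 8 had the order of Prom1, which 17.6% of all genes tested had.

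**Figure D3:**
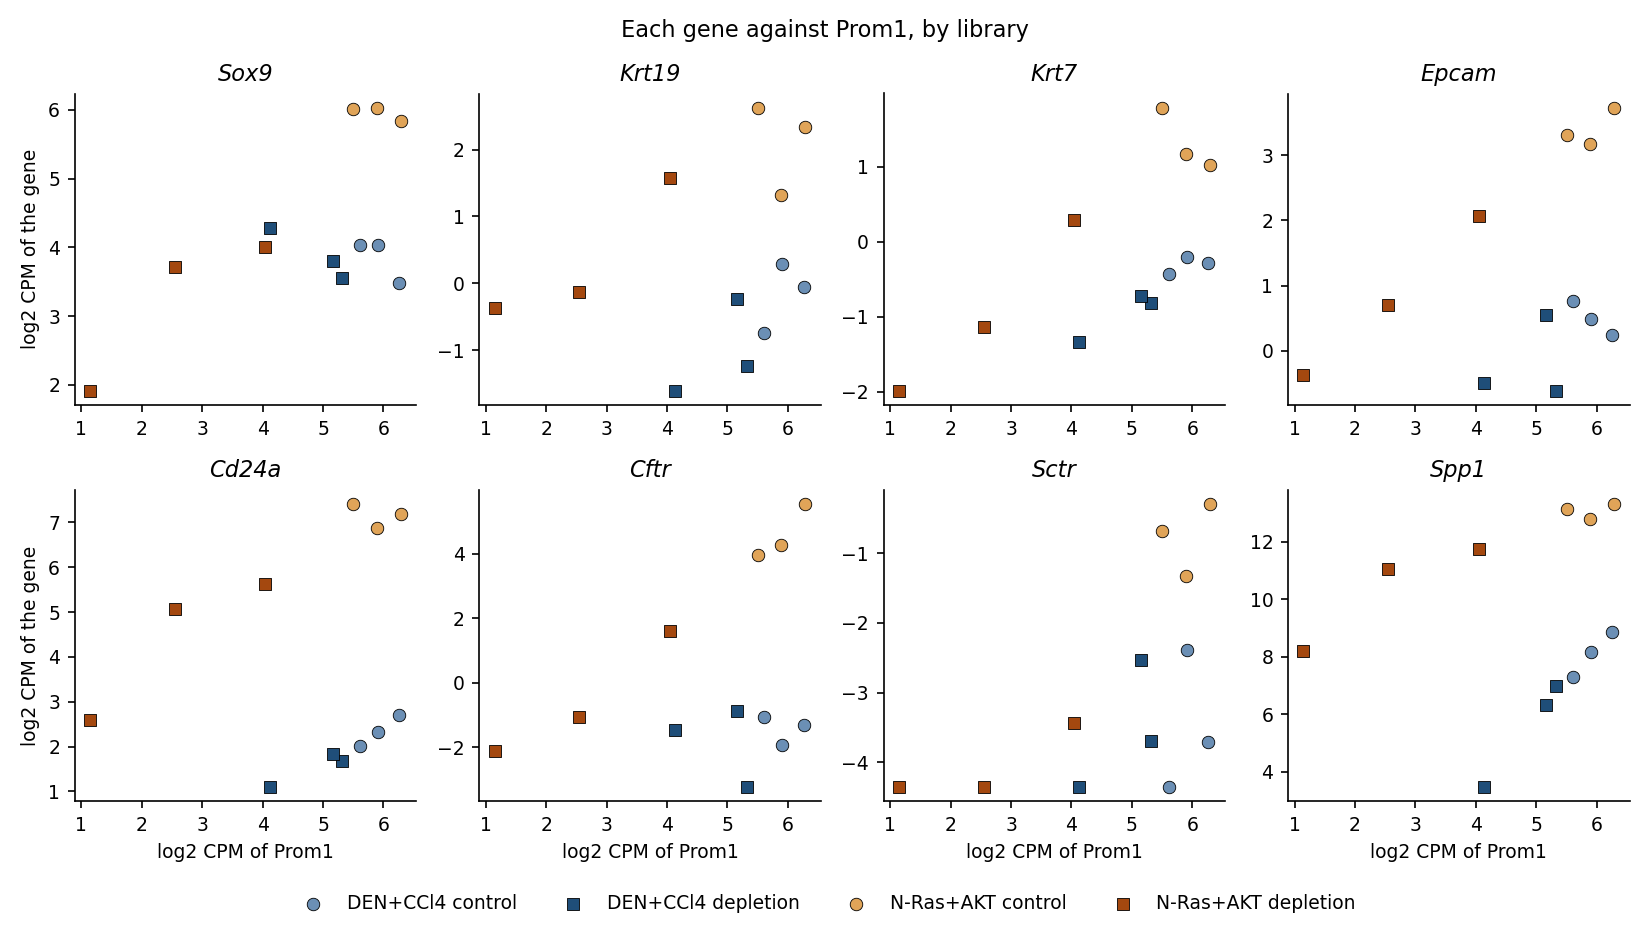
Level of each gene (vertical axis) against the Prom1 level of the same library (horizontal axis), both as log2 CPM with a prior count of 2. Circles are controls and squares depletion libraries, blue for DEN+CCl4 and orange for N-Ras+AKT. For Spp1 the DEN+CCl4 points run upward together (r = 0.996 within groups), while for Sox9 they run downward (r = -0.921 within groups).

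Many other bile duct genes fell in N-Ras+AKT as well. Of 46 other genes of duct epithelium, 45 were measured. Among these, 29 fell and 2 passed as higher, where 10.8% of all genes tested passed as lower and 12.8% as higher. The median log2 difference was -1.29, against -0.02 over all genes. Itgb4, an integrin of the basal cell surface, went from 9.75 ± 5.30 to 0.968 ± 0.565 CPM (log2 difference -3.33, adjusted p = 0.00334). Dcdc2a, a protein of the primary cilium, fell from 33.9 ± 8.62 to 4.44 ± 3.34 CPM (-2.93, adjusted p = 0.00529). Cldn6, a tight junction claudin, fell by 2.86 on the log2 scale (adjusted p = 0.012), and Ehf, an epithelial transcription factor, had a log2 difference of -2.82 (adjusted p = 0.0184).

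The 2 that were higher were Vtcn1, an inhibitory ligand of the B7 family (0.490 ± 0.268 against 1.504 ± 0.750 CPM, adjusted p = 0.0427), and Prom2, a relative of Prom1. Prom2 had no counts in any control and 0.188 ± 0.248 CPM after depletion (adjusted p = 0.0461), so no fold is given. The number that fell was 17 without control 3, without control 15, without depletion 6 or without depletion 17, and 19 with the 6 libraries alone. It was 22 when N-Ras+AKT depletion 17 and DEN+CCl4 depletion 6 were left out together (median log2 difference -1.04, against -0.03 over all genes). For these alternatives, here and in the lists that follow, no share over all genes is given. Fewer of all genes passed in each of them than in the fit of all libraries. In DEN+CCl4 none of the 45 passed, and the median log2 difference was -0.43. For the difference of effects, 6 of the 45 passed as lower, where 3.61% of all genes did, and 1 as higher, where 7.98% did.

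**Figure D4:**
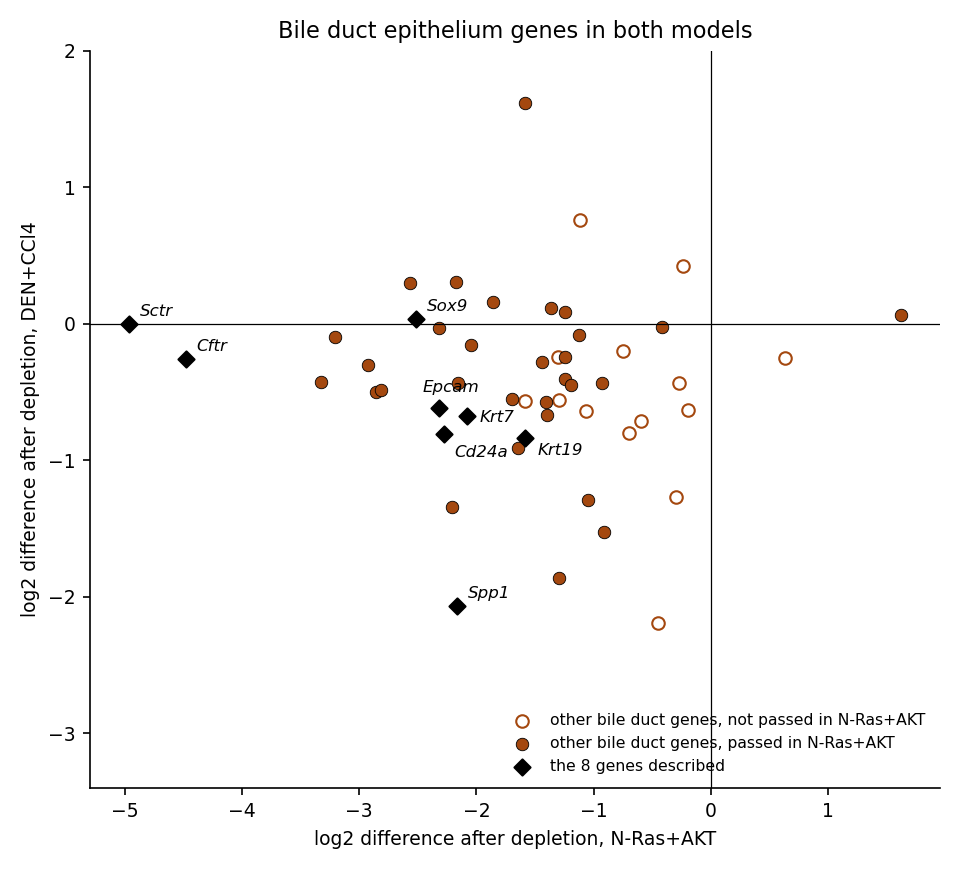
Log2 difference after depletion in DEN+CCl4 (vertical axis) against that in N-Ras+AKT (horizontal axis) for 44 other bile duct genes (circles) and the 8 genes described (diamonds). Filled circles passed in N-Ras+AKT. Prom2 is not drawn, since its controls had no counts, and most points lie left of 0 (median -1.29 over the 45 genes measured).

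Partners of Cftr and Sctr in secretin signalling and ductal transport were mixed. Of 22 genes 19 were measured, and in N-Ras+AKT 4 rose and 5 fell, with a median log2 difference of 0.04. Of all genes tested, 12.8% rose and 10.8% fell. Those that fell included Slc12a2, the cotransporter that loads chloride into the cell (53.6 ± 10.6 to 12.1 ± 4.46 CPM, log2 difference -2.15, adjusted p = 0.00334), and Ano1, a calcium-activated chloride channel (-1.76, adjusted p = 0.00458). Sstr2, the receptor of somatostatin, which opposes secretin (-0.94, adjusted p = 0.028), Slc10a2, the apical bile acid transporter (-0.79, adjusted p = 0.0463), and Slc9a3r1, a scaffold that binds CFTR (-0.36, adjusted p = 0.0299), also fell. The 4 that rose were Vipr1, a receptor for vasoactive intestinal peptide (1.53, adjusted p = 0.0122), the adenylate cyclases Adcy9 (1.17, adjusted p = 0.00832) and Adcy7 (0.64, adjusted p = 0.0463), and Kcnn2, a potassium channel (1.02, adjusted p = 0.0333). Without control 3, without control 15 or without depletion 17, 2 fell, and with the libraries that stood apart left out together 3 rose and 3 fell. In DEN+CCl4 none of these genes passed.

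Genes of the Notch, YAP and TGF-beta pathways, which act on the duct fate and on Sox9, were lower or did not pass. Of 29 measured out of 30, 14 fell in N-Ras+AKT and 0 rose (median -0.59), and none passed in DEN+CCl4. Of all genes tested, 10.8% fell and 12.8% rose in N-Ras+AKT. The largest falls were in the YAP targets Ankrd1 (34.2 ± 9.12 to 4.88 ± 5.41 CPM, log2 difference -2.81, adjusted p = 0.0294) and Ccn2 (-2.32, adjusted p = 0.048), the Notch ligands Jag2 (-2.28, adjusted p = 0.0263) and Jag1 (43.9 ± 15.5 to 11.8 ± 6.84 CPM, -1.90, adjusted p = 0.0185), and Tead2, a DNA-binding partner of YAP (-2.17, adjusted p = 0.0149). The count was 8 without control 3, 6 without control 15, 8 without depletion 17, 6 with the 6 libraries alone, and 9 when the libraries that stood apart were left out together. Of 14 cartilage and matrix genes that SOX9 binds in other tissues, 6 were measured and 2 fell, Col9a3, a collagen chain (-3.57, adjusted p = 0.00806), and Sox5, a partner of SOX9 (-0.54, adjusted p = 0.0251). With those libraries left out together, 1 fell.

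Other progenitor and fetal liver genes were also counted. Of 23 genes 20 were measured, and in N-Ras+AKT 4 fell, where 10.8% of all genes did, and 3 rose, where 12.8% of all genes did, with none passing in DEN+CCl4. Neither share is read as a result about the list. The fetal RNA H19 fell from 94.4 ± 22.1 to 9.26 ± 7.86 CPM (log2 difference -3.35, adjusted p = 0.04), and its neighbour Igf2, a fetal growth factor, also fell (-1.98, adjusted p = 0.0191). Tnfrsf12a, the receptor of the cytokine TWEAK (-1.37, adjusted p = 0.0268), and Bmi1, a Polycomb protein (-0.41, adjusted p = 0.0334), fell as well. The 3 that rose were the Wnt targets Lgr5 (0.801 ± 0.396 to 4.84 ± 1.49 CPM, 2.60, adjusted p = 0.00334) and Axin2 (1.39 ± 1.10 to 6.00 ± 1.12 CPM, 2.11, adjusted p = 0.0258), and Aldh1a1, a retinaldehyde dehydrogenase (1.13, adjusted p = 0.0148). None of the list fell without control 3 and 2 fell without control 15, and 1 rose without depletion 17. With the libraries that stood apart left out together, 2 rose and 4 fell.

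Markers of other cell types moved in the same N-Ras+AKT comparison, and their part in the falls was not tested. Of all genes tested, 12.8% passed there as higher and 10.8% as lower. Hepatocyte markers passed as higher in 9 of 18 (summed level 76440 to 80570 CPM in controls, 75410 to 91550 after depletion), and B and plasma cell markers in 4 of 9 (10.2 to 11.2, then 18.8 to 42.9 CPM). Of 14 macrophage markers 9 were higher and 1 lower, with summed levels of 454.5 to 663.7 CPM in controls and 785.9 to 953.2 CPM after depletion. Macrophages are a known source of Spp1. Stellate cell and fibroblast markers, another source of Spp1, had 1 higher and 1 lower of 12, with summed levels of 624.8 to 744.5 and then 266.0 to 654.2 CPM. Their summed level overlapped between those groups but not between the DEN+CCl4 groups (537.1 to 637.8 CPM in controls, 176.9 to 467.6 CPM after depletion). None of the 12 passed in DEN+CCl4. In the same DEN+CCl4 comparison the summed levels of endothelial markers (420.7 to 449.5, then 183.8 to 315.0 CPM), erythroid markers (47.6 to 90.2, then 3.69 to 19.6) and B and plasma cell markers (97.9 to 173.9, then 45.5 to 83.3) were also lower without overlap, and that of neutrophil markers was higher (6.42 to 8.36, then 12.5 to 13.6), with no marker passing. In the N-Ras+AKT comparison, mesothelial markers had 5 lower and 1 higher of 10 (3.20 to 6.61, then 4.42 to 8.34 CPM summed, with Bnc1 at 0 after depletion). Endothelial markers in N-Ras+AKT had 3 higher and 1 lower of 10 (133.1 to 173.1, then 161.9 to 195.1 CPM). No neutrophil marker of 8 measured (18.5 to 31.7, then 13.5 to 24.5 CPM) and no erythroid marker of 6 measured (200.8 to 672.0, then 159.5 to 324.3 CPM) passed in N-Ras+AKT. Several of the 8 genes are also expressed in pancreas, gut and gallbladder. Of their markers, Ptf1a, Ins1, Cpa1, Cdx1 and Cdx2 had no counts in any group. Of 12 pancreas markers, 3 had counts in DEN+CCl4 controls and 4 after depletion, and 5 in N-Ras+AKT controls and 4 after depletion. For intestine and gallbladder, 9 of 11 markers had counts in N-Ras+AKT libraries. After depletion in N-Ras+AKT, 2 of 5 measured intestine and gallbladder markers fell (53.2 to 68.4, then 49.0 to 62.9 CPM summed). None of the 2 measured pancreas markers did (12.4 to 15.7, then 9.90 to 11.2 CPM). In DEN+CCl4 the summed levels of both lists were lower after depletion without overlap, with no marker passing. They were 11.9 to 15.2, then 7.785 to 10.6 CPM for intestine and gallbladder, and 39.1 to 45.2, then 15.8 to 36.2 CPM for pancreas.

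The genes most like each of the 8 over the 12 libraries were taken by Pearson's r of log2 CPM, which here mostly reflects the differences between the 4 groups and is given as a description. For Sox9 they were Zfp184 (r = 0.971), Mamld1 (0.966) and Rab34 (0.951). Krt19 was most like Gja1 (0.962), Gm42528 (0.961) and Metap2 (0.959), and Krt7 most like Wtip (0.987), Anxa4 (0.965) and Wfdc3 (0.961). Prr15l came first for both Epcam (0.985) and Cftr (0.983), followed by Pcdh19 (0.985) and Ppp2r2b (0.984) for Epcam and by Slc4a3 (0.979) and Zim1 (0.977) for Cftr. Cd24a was most like Hkdc1 (0.988), A2m (0.986) and Tax1bp3 (0.986), and Spp1 most like Loxl2 (0.984), Serf1 (0.981) and Ddit4l (0.98). Sctr, with its low counts, was most like Gm42820 (0.975), Mex3b (0.945) and Ptprr (0.939).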

How the data were processed

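Bulk RNA-seq of 12 liver tumour libraries was used. Single-cell samples (6) are not analysed here. Per the labels, frozen tumours gave poly-A libraries (KAPA mRNA HyperPrep kit) for a NovaSeq instrument. The authors deposited whole-number counts per Ensembl gene, not normalized. The submitters' processing notes list the tools RSEM 1.3.1, STAR 2.7.3 and Cell Ranger 3.0.2 and the build mm10 without roles, so the counts may be rounded RSEM estimates. The strand setting and annotation were not found in the labels, and antisense reads (Gm671 on Krt7, Gm15592 on Cftr) may be included. GENCODE M21 supplied symbols for 55154 of 55335 identifiers, and the other 181 held 0.00642% of counts.

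Library totals were 31306617 to 48055812 counts, with TMM factors from 0.7734 to 1.323. One edgeR 4.0.16 quasi-likelihood model (R 4.3.3, robust, filterByExpr, 17013 genes, 8 residual degrees of freedom, biological coefficient of variation 0.238) held 4 group means. A slope on log2 Prom1 CPM was fitted in addition. Tests were 2-sided, and the threshold was 0.05 on p-values adjusted over all genes by Benjamini and Hochberg's method. The SE of a log2 difference or slope is its absolute value divided by the square root of the F statistic of the quasi-likelihood test. Log2 CPM had a prior count of 2. Levels are TMM-scaled CPM. The code was tested on simulated data. Alternatives were RLE factors, DESeq2 1.42.0, limma 3.58.1 voom, no filter, each library left out, 2 libraries left out together, and the 6 libraries alone.

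The genes and lists were chosen with earlier results of these data known. From 5 gene lists, up to 5 passing genes per direction with the largest change were named (1 gene so chosen is not reported here), and 10 marker lists were summed. For each gene the 3 most alike were named.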

Additional observations from a re-analysis of the deposited data

Results flagged for a closer look

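The effect of depletion on Sox9 differed between the models by a test of the difference itself (edgeR quasi-likelihood test). The log2 difference between depletion and control was -2.51 in N-Ras+AKT, where 3 of 3 depletion libraries lay below all controls, and 0.04 in DEN+CCl4, where the groups overlapped. The difference of these effects was -2.55 ± 0.58 (adjusted p = 0.0225, and 0.000168 to 0.0658 over 17 alternatives). For Prom1 it was -1.90 ± 0.81 (adjusted p = 0.151 by the same test). The part of unequal Prom1 loss, and of the different days after the last dose, was not tested.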

How the results depend on the processing

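No paired analysis was possible because the groups share fewer than 2 replicate numbers. With 1 library left out at a time, the number of the 8 genes passing was 5 to 7 in N-Ras+AKT (6 with all libraries), 0 in DEN+CCl4, 0 to 4 for the difference of effects (1), 6 to 8 between controls (8), 2 to 4 between depletion groups (2) and 0 to 1 for the slope on Prom1 (0). DESeq2 passed 3 for the difference of effects, 4 between depletion groups and 3 for the slope. Limma-voom passed 2 for the difference of effects, and no filter passed 0.

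Genes passing in N-Ras+AKT numbered 4027, and 1768 to 4125 with 1 library left out, 2429 without DEN+CCl4 depletion 6 and N-Ras+AKT depletion 17, and 2626 with the 6 libraries alone. In DEN+CCl4 they numbered 63, and 2 to 465 with 1 library left out, 1066 by DESeq2, 171 with no filter, 26 without both libraries and 13 with the 6 alone. For the difference of effects they numbered 1972, then 895 to 2326, 2984 by DESeq2 and 844 without both libraries. For the slope they numbered 0, then 0 to 66, 255 by DESeq2, 9 by limma-voom and 20 with no filter. Other bile duct genes that fell numbered 17 to 31 with 1 library left out and 19 with the 6 alone.

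Values that changed sign had not passed with all libraries. In DEN+CCl4, Sox9 ran from -0.19 to 0.19 with 1 library left out and was -0.18 without both libraries. Cftr ran from -0.94 to 0.25. Sctr ran from -1.56 to 1.68, and was 0.0067 by RLE, 0.13 by limma-voom and 0.51 without both. The difference of effects for Spp1 ran from -0.78 to 0.58, and Prom1 between controls from -0.25 to 0.16. Between depletion groups, Sox9 was 0.15 without both libraries, and Krt7 was -0.0266 by limma-voom and -0.64 to 0.71 with 1 left out. The Sox9 slope ran from -0.21 to 0.53 and was -0.0259 without both. The correlation of Sox9 with Prom1 was 0.553 over 12 libraries, -0.921 in DEN+CCl4 and -0.878 without the libraries farthest in Prom1. Without both libraries it was -0.098 (an alternative added after seeing the data). That value pools both models, so it does not show how the DEN+CCl4 relation depends on depletion 6. For Cftr the correlation was 0.651 over 12 libraries, -0.37 in DEN+CCl4 and -0.032 without the libraries farthest in Prom1. The cause was not tested. Depth limits Sctr and Cftr in DEN+CCl4.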
